A study of Mus musculus with 49 samples.

Results

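The samples described here are the 33 CT26 tumours, of 49 in the series, whose mice received an antibody against PD-1, compared with the 16 tumours whose mice received none. They were chosen by the treatment label alone. Of the 33, 17 received anti-PD-1 by itself and 16 anti-PD-1 plus celecoxib, called the combination here. Of the 16, 9 received the vehicle, a mixture of DMSO-PEG400 and water, and 7 celecoxib. CT26 is a mouse colorectal carcinoma line, grown in culture and then injected into Balb/c mice, the strain of every group. Per the labels, treatment began on day 7 after injection and ran for 7 days, with daily celecoxib at 30 mg per kg and 2 antibody doses of 200 µg. The day of collection is day 7 of treatment by the tissue label and day 4 by the extraction protocol. A response label, R or NR, is given for every tumour without a definition. All 16 tumours without antibody were NR, and of those with antibody 16 were R (4 with anti-PD-1 alone and 12 with the combination). Whether the tumours come from separate animals is not stated, and the p-values reflect the spread among these samples, which may be technical. The comparison asks what the antibody changed in tumour RNA, with celecoxib held constant as a block in the model.

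PD-1, encoded by Pdcd1, is an inhibitory receptor of activated T cells, and antibodies against it release T cells from the signal of its ligands PD-L1 and PD-L2. Celecoxib inhibits COX-2, the prostaglandin-producing enzyme encoded by Ptgs2. Some of the changes below lie in 2 other systems. The circadian clock is a loop in which BMAL1 (gene Arntl) and CLOCK bind E-boxes, DNA elements with the letters CACGTG, and switch on their own repressors Per and Cry, the repressors of Arntl (Nr1d1 and Nr1d2), and output factors such as Dbp and Tef. Glucocorticoid hormones act through the receptor encoded by Nr3c1 and induce a set of targets in many cell types, Fkbp5, Tsc22d3 and Zbtb16 among them.

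Total counts ranged from 4251251 to 13671294 per library, with a median of 7670623 over tumours with antibody and 7674503 over those without. Markers of tissue next to the tumour were uneven. Summed skeletal muscle markers ranged from 69.6 to 4444 CPM (reads scaled to TMM library size, in CPM) with antibody and from 72.2 to 7446 without, and skin markers reached 1844 CPM in celecoxib replicate 3. Adipocyte markers were highest, at 966 CPM, in vehicle replicate 6. In all, 12 libraries (9 with antibody, 3 without) passed the limits set for such tissue. Without them 6 of the 16 genes called below were lost and 7 uncalled genes named below were called, as stated where these are described. Of 14 genes of colorectal epithelium and carcinoma, 8 could be tested. Among the untested ones were Cdx1, Cdx2 and Vil1, with 3, 1 and 7 counts over the 49 libraries. Cldn7 had 20 counts, Muc2 100 and Epcam 375, and the intestinal genes Krt20 and Lgals4 were among those tested.

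Among the genes called lower with the antibody were 5 of 20 tested clock genes (Dbp, Tef, Per2, Per3 and Nr1d2) and 3 of 15 tested glucocorticoid response genes (Fkbp5, Tsc22d3 and Zbtb16). The activator of the clock, Arntl, was called higher. Of 13726 genes tested, 16 passed an adjusted p of 0.05 (edgeR quasi-likelihood test, Benjamini-Hochberg), which is 0.117% of all genes, and such genes are said to be called. The 2 that rose were Arntl and Spon2 (0.0146%). The 14 that fell were Fkbp5, Rnu11, Per3, Per2, Dbp, Tef, Msh6, Zbtb16, Tsc22d3, Nr1d2, Vegfd, Rnu12, Apbb2 and Clca3a1 (0.102%). In all 741 genes had an unadjusted p under 0.05, and the median change of all genes was 0.01 on the log2 scale. The comparison was also made within each stratum, anti-PD-1 against vehicle and combination against celecoxib, and these share no tumour. All 16 called genes had the same sign in both strata, against 55.8% of all genes tested, a count that the joint test itself favours.

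**Figure D1:**
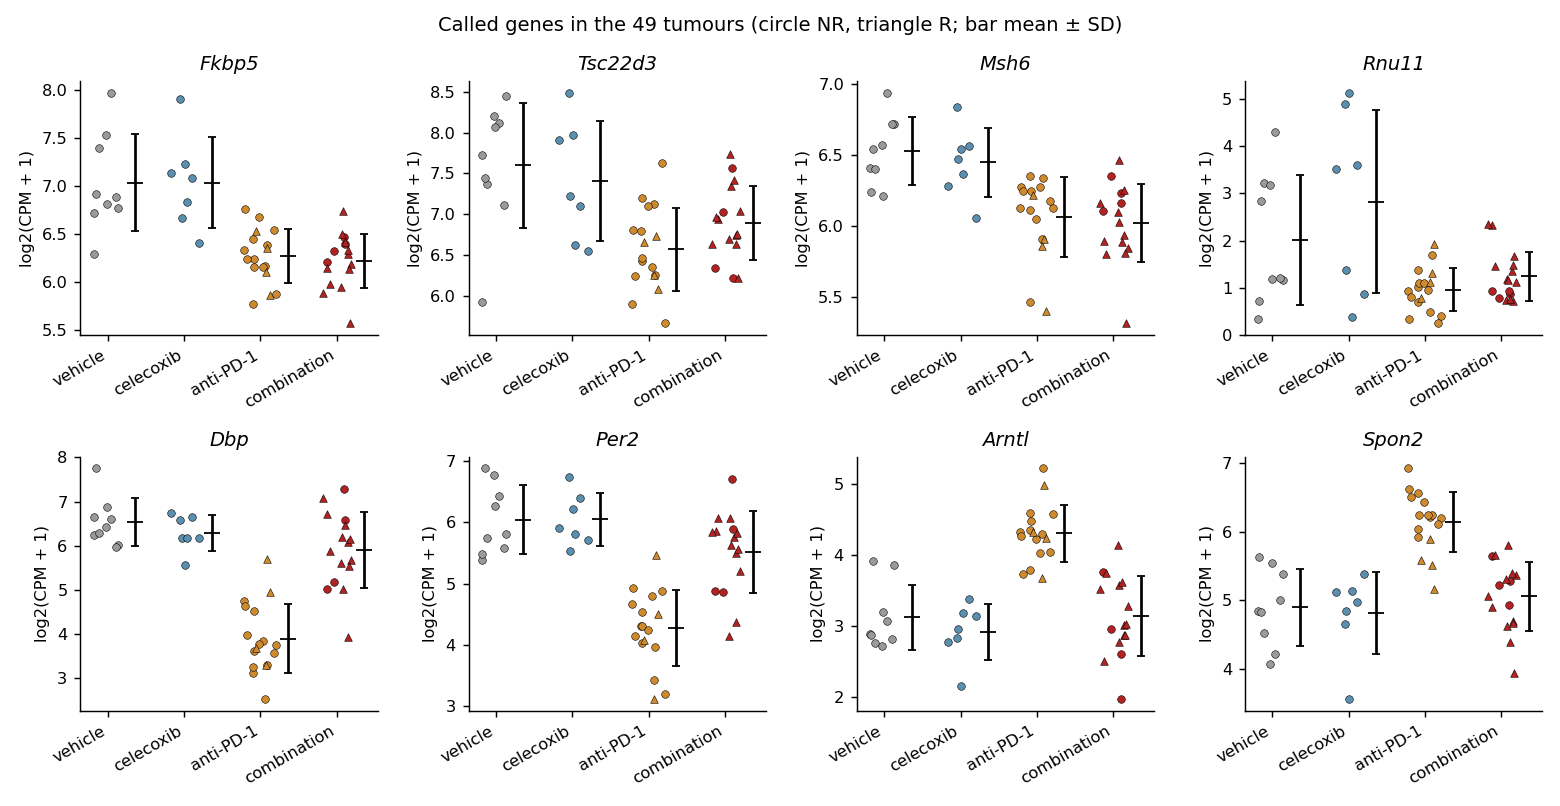
Level of 8 called genes as log2(CPM + 1) in each of the 49 tumours, by treatment; circles are tumours labelled NR, triangles R, and the bar is the mean ± SD. Fkbp5 and Msh6 are at like levels in both antibody groups, whereas Dbp, Per2, Arntl and Spon2 stand apart mostly with anti-PD-1 alone.

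Fkbp5, which encodes a co-chaperone of the glucocorticoid receptor, had the smallest adjusted p. Its lowest, median and highest levels were 77.8, 117 and 251 CPM with vehicle and 83.9, 135 and 239 CPM with celecoxib. With anti-PD-1 they were 53.8, 74.9 and 107 CPM, and with the combination 46.6, 75.4 and 106 CPM. All 33 antibody tumours were under the median of the 16 without antibody, 18 of them under its lowest tumour. On the log2 scale the gene fell by 0.85 (SE 0.11, adjusted p = 2.07e-06, edgeR), or 1.80-fold. The stratum changes were -0.83 (SE 0.15) without celecoxib and -0.87 (SE 0.16) with it, each called, with adjusted p 0.00112 and 0.00824. Their difference was -0.04 (95% interval -0.48 to 0.41). The call with celecoxib held in 47 of the 49 fits that leave out 1 tumour. It was absent in limma-voom and without the other-tissue libraries, where this stratum held no call.

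Tsc22d3, which encodes the anti-inflammatory protein GILZ, measured 59.5, 210 and 347 CPM (lowest, median and highest) with vehicle and 92.6, 148 and 359 with celecoxib. It was at 49.5, 86.9 and 197 CPM under anti-PD-1 and 73.2, 115 and 212 in the combination group. The groups overlapped widely: 31 of 33 antibody tumours lay inside the range of the others, and 31 were beneath their median. It fell by 0.89 (SE 0.17, adjusted p = 0.00405, edgeR), with -1.10 and -0.61 in the strata, and the difference between them spanned 0 (95% interval -0.20 to 1.18). It was not called without the other-tissue libraries (-0.81). Zbtb16, which encodes a zinc finger transcription factor, was low in nearly every tumour. Its median was 1.08 (vehicle), 1.14 (celecoxib), 0.40 (anti-PD-1) and 0.56 CPM (combination). Its change of -2.66 (SE 0.48) rested on vehicle replicate 6 at 29.6 CPM and celecoxib replicate 3 at 20.7 CPM, the libraries with the most adipocyte and skin markers, whose part in it was not tested. The change was no longer called without vehicle replicate 6 (-1.71, adjusted p 0.17, edgeR) or without celecoxib replicate 3 (-2.13, adjusted p 0.0701), and without the other-tissue libraries the gene was too low to be tested.

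Of the 15 tested genes of the glucocorticoid response list, these 3 were called lower and none higher. In all, 11 were negative, with a median of -0.25 (-0.16 without vehicle replicate 8). Without celecoxib 13 were negative and the median was -0.55 (-0.34 without vehicle replicate 3), and with celecoxib 6 were negative, 9 positive and the median was 0.08 (-0.06 without combination replicate 15). The kinase gene Sgk1 differed by -0.23 (SE 0.13) and the transcription factor gene Klf9 by -0.17 (SE 0.13), neither called. Nr3c1, which encodes the receptor, differed by 0.03 (SE 0.10), with medians of 174 CPM with vehicle, 190.2 under celecoxib, 170 under anti-PD-1 and 200.3 in the combination group.

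Called clock genes had a different pattern across the strata. Dbp, an output factor of the PAR bZIP family, measured 62.1, 85.3 and 215 CPM (lowest, median and highest) with vehicle and 46.03, 71.4 and 107 CPM with celecoxib. With anti-PD-1 it measured 4.75, 12.4 and 50.8 CPM, so that all 17 tumours were under every vehicle tumour. With the combination it measured 14.4, 62.5 and 156 CPM, and 5 of 16 tumours were under every celecoxib tumour. The joint change was -1.68 (SE 0.29, adjusted p = 0.00132, edgeR), made of -2.60 (SE 0.30) without celecoxib and -0.22 (SE 0.33) with it. The difference of 2.38 (SE 0.47, 95% interval 1.44 to 3.32) had the smallest p of all interaction terms, and its adjusted p was 0.0739 in edgeR, 0.0131 in limma-voom and 0.000743 in DESeq2.

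Tef, a relative of Dbp, went from medians of 131 CPM with vehicle and 137 with celecoxib to 39.9 under anti-PD-1 and 102 in the combination group. All 17 anti-PD-1 tumours were under the lowest vehicle tumour (89.1 CPM), and 8 of 16 combination tumours were under the lowest celecoxib tumour (99.0 CPM). It fell by 1.06 (SE 0.18), with -1.64 and -0.21 in the strata. Per3 and Per2 encode repressors of the loop. Per3 had medians of 91.6, 81.7, 32.6 and 59.8 CPM in the order vehicle, celecoxib, anti-PD-1 and combination, and fell by 0.99 (SE 0.15). All 17 anti-PD-1 tumours were again under every vehicle tumour, as were 11 of 16 combination tumours under every celecoxib tumour. Per2 had medians of 54.9, 58.7, 18.8 and 50.99 CPM in the same order and fell by 1.24 (SE 0.20). Nr1d2, which encodes the nuclear receptor REV-ERB beta, had medians of 125, 115, 63.5 and 105 CPM and fell by 0.58 (SE 0.11). Without and with celecoxib the changes were -1.45 and -0.35 for Per3, -1.79 and -0.46 for Per2, and -0.90 and -0.16 for Nr1d2.

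Arntl, the activator, moved the other way. Its lowest, median and highest levels were 5.55, 6.43 and 14.1 CPM with vehicle and 3.43, 6.79 and 9.42 with celecoxib. They were 11.8, 18.6 and 36.2 CPM under anti-PD-1 and 2.92, 7.13 and 16.7 in the combination group. All 17 anti-PD-1 tumours were above the vehicle median and 9 of 16 combination tumours above that of celecoxib. It rose by 0.82 (SE 0.18, adjusted p = 0.0225, edgeR), with 1.26 and 0.32 in the strata, and was not called without the other-tissue libraries (0.70). In a normal daily cycle Arntl peaks in the opposite phase to Dbp and Per3, and no label gives the hour at which a tumour was taken.

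The 2 strata differed for each of the 6 called clock genes at an unadjusted interaction p under 0.05 (edgeR), but for none after adjustment over 13726 genes. The 95% intervals of the difference were 0.56 to 1.63 for Per3, 0.59 to 2.06 for Per2, 0.79 to 2.07 for Tef, 0.33 to 1.15 for Nr1d2 and -1.58 to -0.30 for Arntl. This interaction test called 0 genes in edgeR (413 had an unadjusted p under 0.05), Dbp alone in limma-voom, and Dbp and Tef in DESeq2. Leaving out anti-PD-1 replicate 12 or 14, or combination replicate 2, 10 or 11, brought Dbp past the threshold in edgeR. These were 5 of the 49 fits that leave out 1 tumour, and the highest adjusted p of Dbp over all 49 was 0.282 (edgeR). None of these fits called Tef or Per3.

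Of 20 tested clock genes, 1 was called higher and 5 lower, 17 were negative and the median was -0.37. Without celecoxib 1 was called higher and 6 lower, of which Cry2 (-0.86, SE 0.18) was the one not called jointly, and the median was -0.73. With celecoxib none was called, 13 were negative and the median was -0.09. Without vehicle replicate 8, the tumour highest in summed clock genes, these medians were -0.17 jointly and -0.38 without celecoxib, while the 6 joint calls held. Among uncalled members the repressors Cry2 and Cry1 differed by -0.60 (SE 0.14) and -0.63 (SE 0.15) jointly, Per1 by -0.69 (SE 0.22) and the output factor Hlf by -0.98 (SE 0.30). Cry2 was called in 6 of 9 alternative settings (lowest adjusted p 0.0146) and Cry1 in 5 (lowest adjusted p 0.0192), the removal of the other-tissue libraries among them for both. Of the 49 fits that leave out 1 tumour, 10 called Cry2 and 6 called Cry1. The highest adjusted p in those 49 fits was 0.192 for Cry2 and 0.211 for Cry1 (edgeR). Nfil3, a repressor that opposes Dbp, differed by 0.60 (SE 0.19) and Clock by 0.39 (SE 0.14). Nr1d1 (-0.68 without and 0.28 with celecoxib) and Ciart (-0.78 and 0.06) had opposite signs in the strata.

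**Figure D2:**
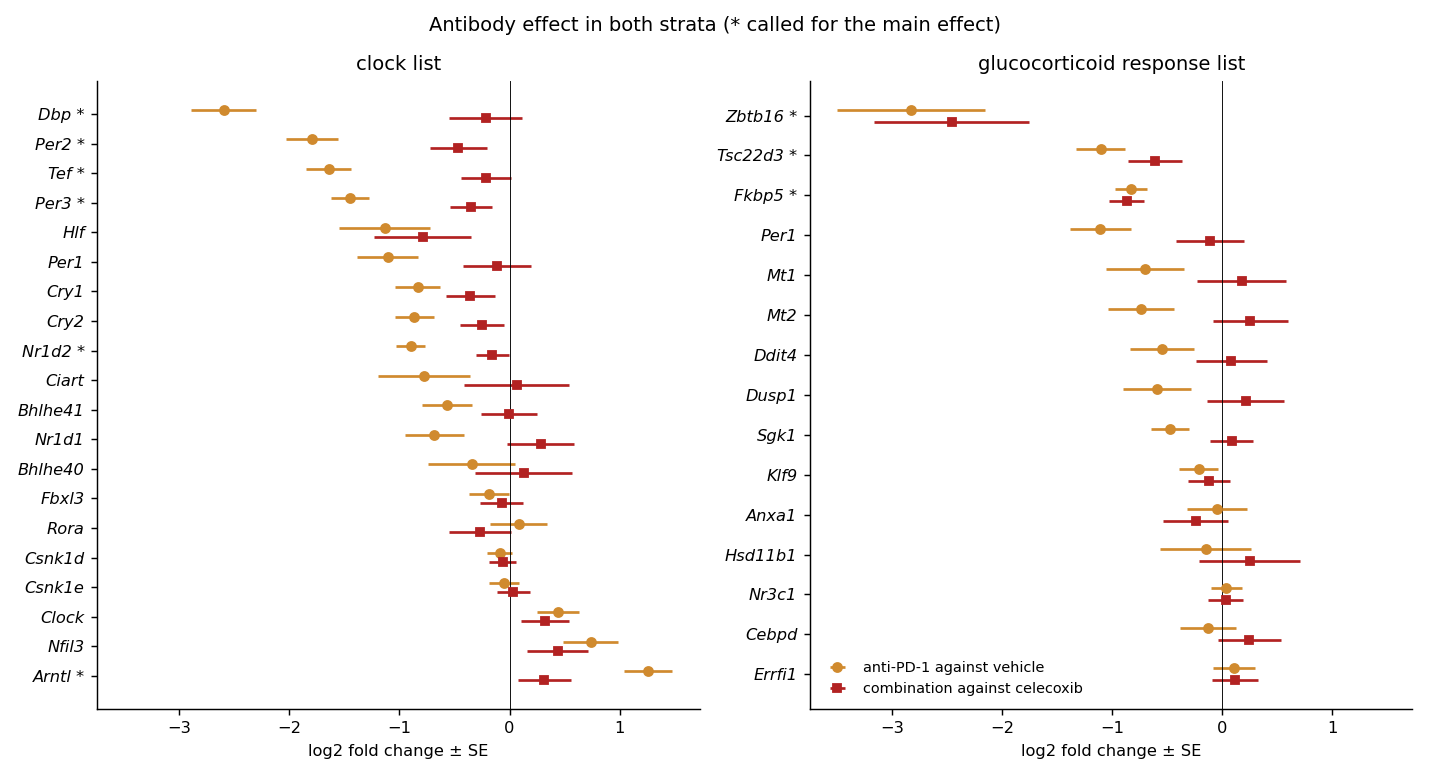
Antibody effect on each tested gene of the clock list and the glucocorticoid response list, as log2 fold change ± SE, with anti-PD-1 against vehicle as circles and the combination against celecoxib as squares; an asterisk marks the genes called jointly. Dbp, Per2, Tef and Per3 lie from -2.60 to -1.45 without celecoxib and from -0.46 to -0.21 with it, while Fkbp5 is at -0.83 and -0.87.

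The E-box letters of BMAL1 and CLOCK were looked up in RefSeq promoter windows (GRCm38.p6, 250 bases before to 50 after each start). Windows were at hand for 11 of the 16 called genes. The letters, which read the same on both strands, occurred in windows of Tef and Fkbp5 only, that is in 1 of 5 called clock genes with a window and 2 of 11 called genes, against 11.5% of the 10149 tested genes with a window (1164 genes). Counted by window, all 32851 windows held them in 7.15% of cases. Both Tef windows hold them, 127 and 138 bases before the start, and that of Fkbp5 holds them 169 bases before. They are printed with the 30 bases on either side, E-box in capitals, because they are the matches among the called genes: Tef had stratum changes of -1.64 and -0.21, and Fkbp5 of -0.83 and -0.87.
Tef, chr15:81802516-81802581, plus strand: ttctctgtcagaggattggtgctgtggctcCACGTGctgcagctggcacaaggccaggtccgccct
Tef, second start, chr15:81811246-81811311, plus strand: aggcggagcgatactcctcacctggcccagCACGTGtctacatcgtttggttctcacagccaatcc
Fkbp5, chr17:28486283-28486348, minus strand: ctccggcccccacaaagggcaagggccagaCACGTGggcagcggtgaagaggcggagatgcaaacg
The matches describe these letters only, and a window without them says nothing of binding elsewhere in the gene.

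Rnu11 and Rnu12 encode U11 and U12, the small nuclear RNAs of the minor spliceosome, which removes a rare class of introns. Their sequences are given because the libraries were primed on poly(A), which such RNAs lack: the longest run of A, in capitals, is 5 bases in the 134 of U11 and 4 in the 151 of U12 (GENCODE M21, DNA letters).
U11, Rnu11, chr4:132270080-132270213, minus strand: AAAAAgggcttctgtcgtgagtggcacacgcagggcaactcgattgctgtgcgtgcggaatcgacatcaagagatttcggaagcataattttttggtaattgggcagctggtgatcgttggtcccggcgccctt
U12, Rnu12, chr15:83149644-83149794, plus strand: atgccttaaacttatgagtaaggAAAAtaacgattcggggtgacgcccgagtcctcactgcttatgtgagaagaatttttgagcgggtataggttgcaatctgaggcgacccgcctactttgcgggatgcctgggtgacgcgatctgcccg
Rnu11 measured 0.26, 1.31 and 18.6 CPM (lowest, median and highest) with vehicle and 0.30, 10.4 and 34.2 CPM with celecoxib. It was at 0.18, 0.92 and 2.83 CPM under anti-PD-1 and at 0.63, 1.21 and 4.06 CPM in the combination group. High values occurred in part of the tumours without antibody (8 of 16 above every antibody tumour), and 32 of 33 antibody tumours lay inside the range of the others. It fell by 2.64 (SE 0.38, adjusted p = 3.64e-05, edgeR), with -2.30 and -3.01 in the strata, and kept its call in all 49 fits that leave out 1 tumour. Limma-voom did not call it (-1.62). Rnu12 had medians of 0.44, 1.37, 0.31 and 0.39 CPM in the order vehicle, celecoxib, anti-PD-1 and combination, and fell by 1.67 (SE 0.36, adjusted p = 0.0225, edgeR). It was lost without celecoxib replicate 3 (adjusted p 0.133, edgeR) and in limma-voom, and was too low to be tested without the other-tissue libraries. Rnu11 lies on a lincRNA of the opposite strand, Gm28872, and no source used here gives the strand setting of the counting, so the transcript behind these counts is uncertain.

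Msh6 encodes a subunit of the mismatch repair recognition complex. Its lowest, median and highest levels were 73.2, 92.4 and 122 CPM with vehicle and 65.7, 88.0 and 114 with celecoxib, against 41.2, 68.9 and 81.0 under anti-PD-1 and 38.7, 65.9 and 87.5 in the combination group. All 33 antibody tumours were under the median of those without antibody. It fell by 0.45 (SE 0.08, adjusted p = 0.0015, edgeR), or 1.36-fold, with -0.47 and -0.43 in the strata (95% interval of the difference -0.29 to 0.37). Of the 24 proliferation genes Msh6 was the one called, 19 were negative and the median was -0.10. Msh6 overlaps Fbxo11 on the opposite strand, which differed by 0.07.

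Vegfd, which encodes a growth factor of lymphatic vessels, had medians of 65.8 and 60.01 CPM without antibody (vehicle, celecoxib) and 45.6 and 45.8 CPM with it (anti-PD-1, combination). In 32 of 33 antibody tumours it was under the median of the others, and it fell by 0.47 (SE 0.09, adjusted p = 0.0084, edgeR), with -0.47 and -0.46 in the strata. Vegfd was not called without the other-tissue libraries (-0.44), nor was Apbb2 (-0.32). Apbb2, which encodes an adaptor that binds the amyloid precursor protein, had medians of 184, 162, 150.1 and 140 CPM in the order used above. It fell by 0.30 (SE 0.07), with -0.29 and -0.32 in the strata, the smallest change called. Clca3a1, a member of the calcium-activated chloride channel regulator family, had medians of 83.1, 61.5, 47.7 and 54.3 CPM. It fell by 0.55 (SE 0.12), with -0.72 and -0.33 in the strata, and all 16 tumours without antibody were above the antibody median.

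Spon2, which encodes the secreted matrix protein spondin 2, measured 15.9, 27.8 and 48.6 CPM (lowest, median and highest) with vehicle and 10.8, 30.5 and 40.7 with celecoxib. With anti-PD-1 it measured 35.0, 73.5 and 120.4 CPM, and with the combination 14.3, 34.4 and 55.1. Without celecoxib 14 of 17 antibody tumours were above every vehicle tumour, and with celecoxib 4 of 16 were above every celecoxib tumour. It rose by 0.76 (SE 0.17, adjusted p = 0.0312, edgeR), with 1.24 and 0.24 in the strata and a difference of -0.9965 (95% interval -1.59 to -0.40). It was called in 27 of the 49 fits that leave out 1 tumour, the least of the 16 genes, with its highest adjusted p of 0.0968 (edgeR) and a change of 0.69 without vehicle replicate 4. Of 21 fibroblast and matrix genes it was the one called.

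**Figure D3:**
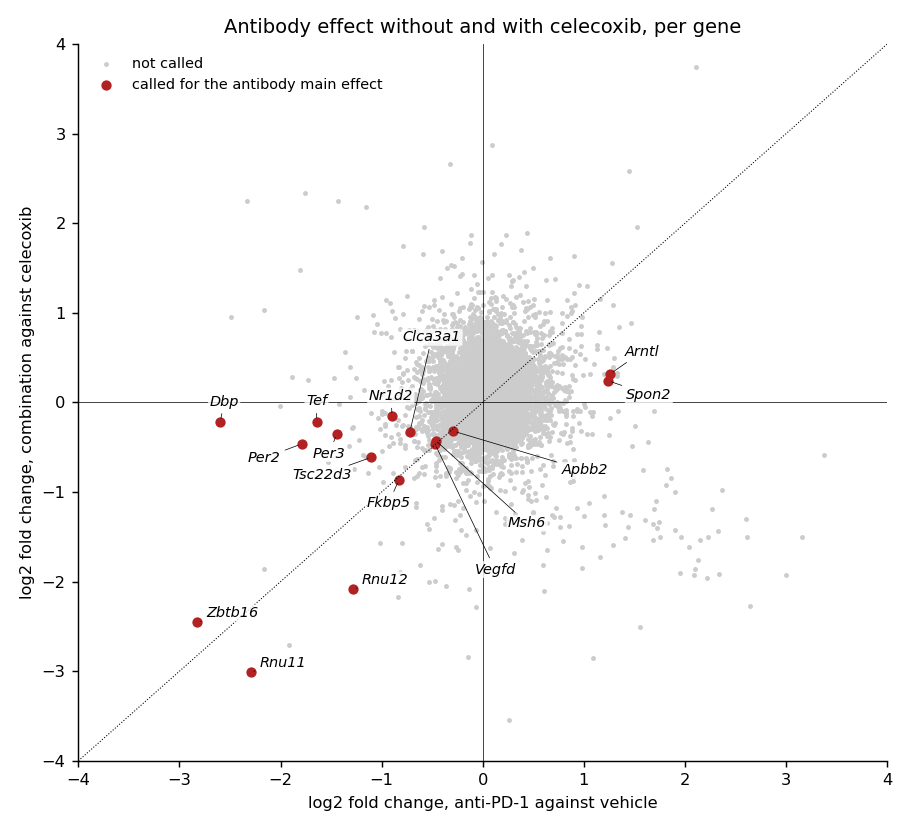
Antibody effect with celecoxib (y axis) against that without celecoxib (x axis) as log2 fold change for the genes tested, 7 of which lie outside the axes; red points are the 16 genes called jointly and the dotted line marks equal effects. Fkbp5, Msh6, Vegfd and Apbb2 lie on the line. Dbp and Tef lie near 0 on the y axis only. Per2 and Per3 lie at -0.46 and -0.35 on the y axis, against -1.79 and -1.45 on the x axis.

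Each stratum alone gave few calls. Anti-PD-1 against vehicle called 12 genes (0.0874%), 2 higher (0.0146%) and 10 lower (0.0729%), and the combination against celecoxib called 5 (0.0364%), all lower: Rnu11, Fkbp5, Sbsn, Krt10 and Dsp. The last 3 are epidermal genes. Without celecoxib replicate 3, the library with skin, this count was 0, so that Rnu11 and Fkbp5 lost this call too. Of the 16 joint calls, 10 held in all 49 fits that leave out 1 tumour, Zbtb16 in 47, Rnu12, Apbb2 and Clca3a1 in 44 each, and Arntl in 42. Arntl, Apbb2 and Clca3a1 had their highest adjusted p (0.0702, 0.0846 and 0.0867, edgeR) without vehicle replicate 4. By stratum, 9 of the 16 were called only without celecoxib, 1 (Rnu11) only with it, Fkbp5 in both and 5 in neither.

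Next to the threshold, 10 higher and 10 lower uncalled genes with the smallest p reached adjusted p values between 0.0575 and 0.275 (edgeR). The lower ones included Mknk2, a kinase of the translation factor eIF4E (-0.43, SE 0.10), Cry2, Cry1 and Bcl2l1, which encodes the survival protein BCL-XL (-0.48, SE 0.13). The others were Foxred2 (-0.86), Trim2 (-0.30), Ndrg3 (-0.26), Slc22a23 (-0.498), Fbxo31 (-0.33) and the desmosome gene Dsp (-3.24), which was at -0.11 without celecoxib replicate 3. Like Cry2, Foxred2 was called in the stratum without celecoxib (-1.29, adjusted p 0.0128, edgeR) but not in that with it (-0.27). The higher ones included mt-Nd5, a mitochondrially encoded subunit of complex I (0.62, SE 0.15), Thbs1, the matrix protein thrombospondin 1 (0.61, SE 0.16), the chemokine gene Ccl6 (0.41, SE 0.11), and Bcl3, an atypical inhibitor of NF-kB (0.65, SE 0.16). Rnase2a, an eosinophil-associated ribonuclease, differed by 2.67 (SE 0.65), with a range of 0.0 to 76.5 CPM over combination tumours. The highest value was that of combination replicate 6, and the median of the group was 1.09 CPM. Of 9 alternative settings 4 called Rnase2a (lowest adjusted p 0.00123, DESeq2). Cd209f, Hdac9, Ggt5, Btaf1 and Exoc3l4 differed by 0.93, 0.73, 0.97, 0.2993 and 0.29. Without the other-tissue libraries 7 of these genes were called (edgeR): mt-Nd5, Cry2, Cry1, Mknk2 (-0.50, adjusted p 0.0232), Ndrg3 (-0.31, adjusted p 0.0126), Foxred2 (-0.97, adjusted p 0.0351) and Hdac9 (0.88, adjusted p 0.0152).

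No gene of the PD-1 axis was called. Pdcd1 had medians of 8.61 (vehicle), 4.70 (celecoxib), 2.10 (anti-PD-1) and 11.4 CPM (combination), and its joint change was 0.11 (SE 0.57). Cd274, which encodes PD-L1, measured 9.88, 18.3 and 27.5 CPM (lowest, median and highest) with vehicle and 7.29, 17.6 and 53.6 with celecoxib, against 5.61, 16.2 and 72.4 under anti-PD-1 and 10.2, 61.4 and 161 in the combination group. Its joint change was 0.70 (SE 0.31, adjusted p = 0.861, edgeR). Pdcd1lg2, which encodes PD-L2, differed by 0.93 (SE 0.43) and Ctla4, another inhibitory receptor, by 0.33 (SE 0.31). Lag3 had 13 counts in all 49 libraries and was not tested. Of 15 tested genes of this list 13 were positive (median 0.24), against 52.9% of all genes. Without celecoxib 8 were positive (median 0.09), against 51.9% of all genes. With it all 15 were positive (median 0.57), against 53.8%.

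The medians of the T cell and cytotoxic lymphocyte lists lay slightly under 0 without celecoxib and above 0 with it. Cd8a, which encodes a co-receptor chain of cytotoxic T cells, had medians of 8.94, 3.38, 1.42 and 15.96 CPM in the order vehicle, celecoxib, anti-PD-1 and combination, with stratum changes of -0.48 (SE 0.74) and 1.09 (SE 0.86) and a joint change of 0.18 (SE 0.58). Gzmb, a granule protease, differed by 0.12 (SE 0.53) and 1.18 (SE 0.61), Ifng by 0.50 (SE 0.68) and 1.15 (SE 0.75), and Prf1, which encodes perforin, by -0.02 (SE 0.65) and 1.01 (SE 0.70); none was called in either stratum or jointly. Of 24 T cell genes 5 were positive without celecoxib and 23 with it (medians -0.15 and 0.88, joint median 0.26). Of 18 cytotoxic lymphocyte genes 8 and 18 were positive (medians -0.05 and 1.02, joint median 0.45). Without anti-PD-1 replicate 2 the joint medians were 0.13 and 0.27 and those without celecoxib -0.49 and -0.30, and without vehicle replicate 5 the latter were 0.07 and 0.10. The interaction was positive for all 24 and all 18 genes, and none was called. In bulk tumours, fewer cells of a type and less RNA per cell cannot be told apart.

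The spread between antibody tumours was wide for these genes, and their medians by response label are given with no test. The median of Ifng was 11.6 CPM in the 16 R tumours and 1.96 in the 17 NR tumours with antibody, and that of Cd274 61.3 and 15.7. For Fkbp5 the medians were 71.2 and 79.3 CPM and for Msh6 58.8 and 71.3. Since 12 of the 16 R tumours had also received celecoxib, the label and the drug are mixed in these medians. Among the interferon-gamma response genes 32 of 33 were positive jointly (median 0.24), among MHC class II genes 9 of 10 (median 0.37) and among macrophage genes 16 of 19 (median 0.18), with no gene called. In each of these 3 lists the median was larger with celecoxib (0.39, 0.78 and 0.39) than without it (0.11, 0.05 and 0.07, or -0.04, -0.16 and -0.11 without anti-PD-1 replicate 2, where the joint MHC class II median was 0.21). Cxcl9, an interferon-induced chemokine, differed by 0.16 (SE 0.37) and the regulatory T cell factor Foxp3 by 0.46 (SE 0.29). Cd4 differed by 0.37 (SE 0.32).

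Genes of the drug target's pathway were not called. Ptgs2 had medians of 12.05 (vehicle), 11.9 (celecoxib), 8.41 (anti-PD-1) and 10.6 CPM (combination), and a joint change of 0.36 (SE 0.39). Pla2g4a, the phospholipase that releases the precursor of prostaglandins, differed by 0.29 (SE 0.10). Of 16 tested prostaglandin genes 13 were positive, with a median of 0.09.

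Endothelial genes were all positive jointly and without celecoxib, and none was called. With celecoxib 12 were positive and 8 negative. The joint median of the 20 genes was 0.27, with 0.47 without and 0.09 with celecoxib, the latter -0.02 without combination replicate 14. Egfl7, a vessel-secreted factor, differed by 0.44 (SE 0.19) and Plvap, which forms the diaphragms of fenestrated vessels, by 0.33 (SE 0.17), while Robo4 differed by 0.66 without and -0.44 with celecoxib. All 10 pericyte genes were positive without celecoxib (median 0.43) and negative with it (median -0.30). Summed endothelial markers had a median of 375 CPM without antibody and 462 with it. All 5 tested red blood cell genes were positive too (median 0.89), with summed medians of 116 and 199 CPM, and the part of blood content in the vessel result was not tested.

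All 7 tested mitochondrially encoded genes were positive jointly (median 0.40). Without celecoxib all 7 were positive (median 0.40), and with it 5 were positive and 2 negative (median 0.58). Of the 7 genes, mt-Nd5 had medians of 322, 385, 434 and 849 CPM in the order vehicle, celecoxib, anti-PD-1 and combination. In 28 of 33 antibody tumours mt-Nd5 was above the median of the others. Its adjusted p was 0.0813 (edgeR), and 5 of 9 alternative settings called it. These were the muscle covariate (adjusted p 0.0493), the fit without a filter (0.0332), the removal of R tumours (0.0221), DESeq2 (0.0182) and the removal of the other-tissue libraries (0.0152, change 0.75). Of the 49 fits that leave out 1 tumour, 2 called mt-Nd5, and its highest adjusted p among the 49 was 0.221 (edgeR). Of the 6 untested members of this list, 4 had 0 counts in every library.

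**Figure D4:**
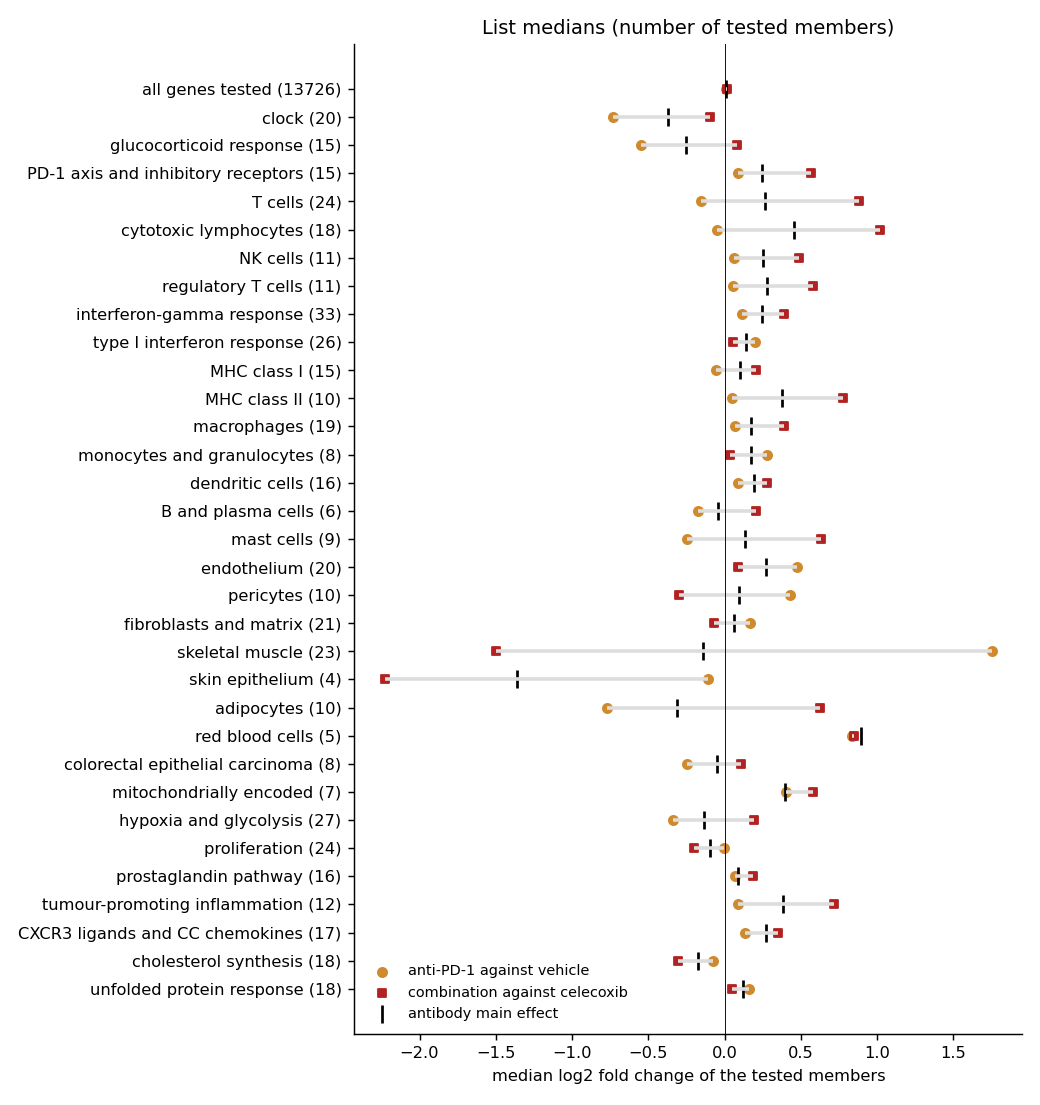
Median log2 fold change of the tested members of each gene list for anti-PD-1 against vehicle (circles), the combination against celecoxib (squares) and the antibody jointly (bars), with all genes at the top. Clock and glucocorticoid lists lie left of 0 jointly, lymphocyte lists right of 0 mainly with celecoxib, and muscle and skin, which follow a few libraries, are widest.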

How the data were processed

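Each of the 49 libraries was a QuantSeq 3′ FWD library, which reads the 3′ end of transcripts, per the labels' protocols. The authors deposited raw counts per Ensembl gene (39179 genes, 37693 given a symbol from GENCODE M21 on GRCm38). Per the submitters' processing notes, bcl2fastq, STAR, featureCounts and limma were used with mm10 and GRCm38; for versions and strand setting the sources used here give nothing. A second table of log2 values was not used. Groups came from the treatment labels.

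Counts were tested with edgeR 4.0.16 in R 4.3.3 (TMM, filterByExpr by treatment, robust quasi-likelihood, adjusted p limit 0.05) in an additive model of antibody and celecoxib. The strata and the interaction came from a fit with their product. CPM used TMM-scaled library sizes, and intervals of the interaction used 45 residual degrees of freedom. The deposited counts allowed 13726 genes to be tested. The pipeline was tested on simulated data. Alternatives were RLE normalization, no filter on low counts, the muscle list as covariate, removal of libraries with other tissue (muscle list mean over 3, or skin or adipocyte mean over 5, as log2 CPM with a prior count of 2), limma-voom (limma 3.58.1), DESeq2 1.42.0, no celecoxib block, equal weights of the strata, removal of tumours labelled R, and removal of each tumour.

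The samples, lists, panel and tests were chosen with earlier results of these data known. As fewer than 20 genes were called, all were named, with the 10 uncalled genes of smallest p in each direction with a mean of at least 2 CPM, a fixed panel and up to 3 members of each list. Lists are described by counts and medians, with no test. A few list members are not reported here.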

Additional observations from a re-analysis of the deposited data

Results flagged for a closer look

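In 12 of 118 sets of a named gene within the vehicle or celecoxib group (10.2%), the most extreme tumour stood apart from the rest. Chance gives about 1 in 20 for independent sets. These sets share the same tumours and many of the genes were chosen by p, so the shares cannot be compared directly. Values are log2(CPM + 1), followed by the nearest tumour of the group. Vehicle replicate 8 was highest for Dbp (7.75, next 6.88) and Ptgs2 (5.95, next 4.12) and lowest for Ctla4 (0.17, next 1.34). Vehicle replicate 6 was highest for Zbtb16 (4.94, next 2.03) and the desmosome gene Dsp (3.66, next 0.84) and lowest for Exoc3l4 (3.73, next 4.11). Celecoxib replicate 3 was highest for Zbtb16 (4.44, next 2.05), Dsp (8.35, next 1.77) and Hlf (4.00, next 2.40) and lowest for Spon2 (3.56, next 4.65). Celecoxib replicate 4 was lowest for Tef (6.64, next 6.99), and celecoxib replicate 2 was highest for Foxred2 (3.45, next 2.85). Of the 4 called genes among these, Dbp and Tef kept their call without any one of these 5 tumours. Zbtb16 lost it without vehicle replicate 6 (adjusted p 0.17, edgeR) and without celecoxib replicate 3 (0.0701). Spon2 lost it without vehicle replicate 6 or 8 (0.0855 and 0.079) and without celecoxib replicate 2 or 3 (0.0703 and 0.0701). The antibody groups hold more than 10 tumours and were not examined in this way.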

How the results depend on the processing

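No paired analysis was possible because the labels give no replicate numbers that the groups share. The joint count of 16 genes was 170 without a filter on low counts, 28 without the libraries with other tissue and 28 in DESeq2. It stayed between 12 and 23 under the other planned settings, and was 10 to 21 when 1 tumour was left out, lowest without vehicle replicate 6. DESeq2 and the fit without a filter called all 16 genes. The genes added without a filter included epidermal ones such as Krt15, Lor and Krt5, all lower. A single library held 2578 of the 2613 counts of Krt15, 2118 of 2140 of Lor and 2155 of 2227 of Krt5. Without the other-tissue libraries 10 of the 16 were called: Tsc22d3 (-0.81), Vegfd (-0.44), Arntl (0.70) and Apbb2 (-0.32) missed the limit, and Zbtb16 and Rnu12 were too low to be tested. Limma-voom lost Rnu11, Rnu12 and Zbtb16. Without the celecoxib block Arntl, Dbp, Nr1d2, Per2, Spon2 and Tef were lost, and without R tumours Apbb2 (-0.27), Arntl (0.89), Msh6 (-0.35), Nr1d2 (-0.54), Rnu12 (-1.41) and Tsc22d3 (-0.92), in a fit with 17 antibody tumours in place of 33. The interaction count of 0 was 1 in limma-voom, 2 in DESeq2 and 0 to 1 when 1 tumour was left out. Without celecoxib the count of 12 was 24 with no filter, 22 in DESeq2 and 8 to 17 when 1 tumour was left out. With celecoxib the count of 5 was 124 with no filter, 2 with the muscle covariate, 0 without the other-tissue libraries, 0 in limma-voom, 2 in DESeq2 and 0 to 8 when 1 tumour was left out (0 without celecoxib replicate 3, 8 without replicate 5). For these changes the cause was not tested. Of the 43 uncalled genes that were chosen by p or belong to the panel, 13 were called without a filter, 11 in DESeq2, 7 without the other-tissue libraries, 7 without R tumours and 6 with the muscle covariate.

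Some uncalled genes changed sign. Ptgs2 was -0.0523 with the muscle covariate, -0.35 without the other-tissue libraries and -0.58 without R tumours, and Nr3c1 was -4e-04, -0.0935 and -0.0617 in the same settings. In limma-voom Cxcl9, Cd8a and Pdcd1 were -0.23, -0.25 and -0.30. Without R tumours Gzmb was -0.32, Ctla4 -0.17, Prf1 -0.21, Cxcl9 -0.33, Cd8a -0.38 and Pdcd1 -0.55. Genes at a few CPM, such as Rnu12, Zbtb16 and Ctla4, rest on few counts at this depth.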

Other observations

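In the skin list Sbsn and Krt10 were called lower in the stratum with celecoxib, as given above. The other lists not described above held no call in the joint comparison or its strata. Of 18 cholesterol synthesis genes 16 were negative (median -0.18). Of 18 unfolded protein response genes 14 were positive (median 0.12, or 0.07 without combination replicate 15), with the ER chaperone genes Hspa5 and Pdia4 at 0.25 (SE 0.09) and 0.42 (SE 0.17). Type I interferon genes were positive in 24 of 26 cases (median 0.14, or 0.09 without anti-PD-1 replicate 2), with Rsad2 at 0.33 (SE 0.16). Hypoxia and glycolysis genes were negative in 26 of 27 cases without celecoxib (median -0.34) and positive in 24 of 27 with it (median 0.19); without vehicle replicate 8, the tumour highest in these genes, the first median was 0.19, and without combination replicate 15 the second was -0.07.

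The dendritic cell list was positive in 14 of 16 genes (median 0.19), led by Clec10a, a lectin of dendritic cells and macrophages, at 0.59 (SE 0.22). The tumour-promoting inflammation list was positive in 11 of 12 genes (median 0.385), with the chemokine gene Cxcl1 at 0.71 (SE 0.28), and its median was -0.18 without tumours labelled R.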
